A study of Mus musculus with 6 samples.

Results

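Genes of apoptosis and of the lytic forms of cell death were followed in the ventricular apex of hearts in a transgenic mouse model of PR-M, a human progesterone receptor of the mitochondrion. The set of 41 genes was chosen by name, with earlier results of these data known. On the Affymetrix Mouse Genome 430 2.0 array 37 of them had a probe set with a single gene symbol, out of 18193 genes represented in the same way. Bax, Bcl2a1d, Ripk1 and Trp53 were not analysed here. Each gene was read from its brightest probe set, that with the highest mean over the 6 arrays. The comparison set 3 samples labelled PR-M expressing against 3 labelled PR-M non-expressing, each of total RNA. Values given as with PR-M are those of the expressing samples and values without are those of the non-expressing samples, each in the order of replicates 1, 2 and 3. All 6 samples came from mice given 2.5 mg of progesterone in oil under the skin for 19 to 21 days, so both groups received the hormone. The labels give neither the strain, age or sex of the mice nor the promoter of the transgene, and they do not say how expression of PR-M was established. They do not state that each array is a separate animal, so the p-values reflect only the spread among these samples, which may be technical.

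Apoptosis is carried out by caspases, proteases that are activated either through the mitochondrion or through death receptors at the cell surface. On the mitochondrial route, BAX and BAK form pores in the outer membrane, anti-apoptotic members of the BCL2 family hold them in check, and BH3-only proteins relieve that restraint. Cytochrome c that leaves through the pores joins APAF1 and caspase-9 in the apoptosome. Heart muscle cells divide rarely, and their loss by apoptosis, by necroptosis (lysis through the pore-forming protein MLKL) or by gasdermin pores is studied as a contributor to heart failure.

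No member passed the test over all genes (limma, Benjamini-Hochberg adjusted p with a threshold of 0.05), against 4 of 18193 genes, or 0.0220%. At an unadjusted p under 0.05 there were 7 members of 37 in limma, 2 higher and 5 lower with PR-M. That is 18.9% of the members beside 12.6% of all genes, of which 5.27% were higher and 7.33% lower. The groups did not overlap in 8 members, 2 higher and 6 lower, or 21.6% beside 19.0% of all genes, of which 8.16% were higher and 10.8% lower. Differences were above zero in 18 of the 37 members, or 48.6%, beside 44.0% of all genes. The 7 at an unadjusted p under 0.05 were Gsdme, Bbc3, Mlkl, Pmaip1 and Ripk3, lower, and Casp6 and Bik, higher. Without expressing replicate 1 the count at an unadjusted p under 0.05 was 3 in place of 7, or 8.11% beside 9.22% of all genes, and without expressing replicate 3 it was 4, or 10.8% beside 10.8%. Without non-expressing replicate 1 the groups did not overlap in 13 members in place of 8, or 35.1% beside 35.3% of all genes. On the measure given for each of these 3 settings, the members' share was near that of all genes. Other settings kept an excess at an unadjusted p under 0.05 in limma. It was 24.3% beside 16% without non-expressing replicate 1, and 24.3% beside 12.3% with each gene's probe sets averaged. The share was lower than that of all genes with dim probe sets left out (14.3% beside 15.2%) and with ordinary statistics (8.11% beside 10.9%). Most differences were small: 27 of the 37 were under 0.2 on the log2 scale in size, and the median size was 0.10 for the members and 0.09 for all genes. The median signed difference, expressing minus non-expressing, was -0.01 for the members and -0.02 for all genes. For 29 members the 95% interval of the difference lay within 0.5 of zero on either side, so a change beyond that size was outside the interval for those genes. Smaller changes were not excluded by these 3 arrays in each group.

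**Figure D1:**
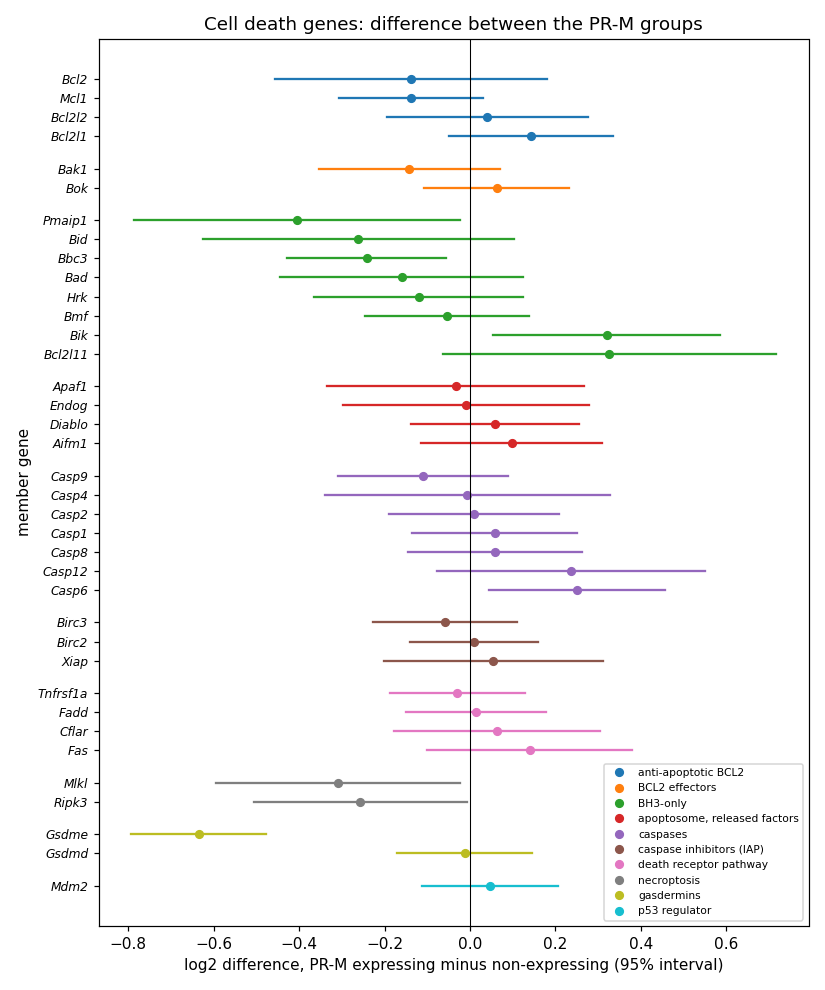
Log2 difference, PR-M expressing minus non-expressing, of the 37 measured cell death genes (points) with its 95% interval from limma (lines), grouped and coloured by role. Gsdme, at -0.64, lies apart at the lower end, and the intervals of 7 genes leave out zero before adjustment for the number of genes tested.

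**Figure D2:**
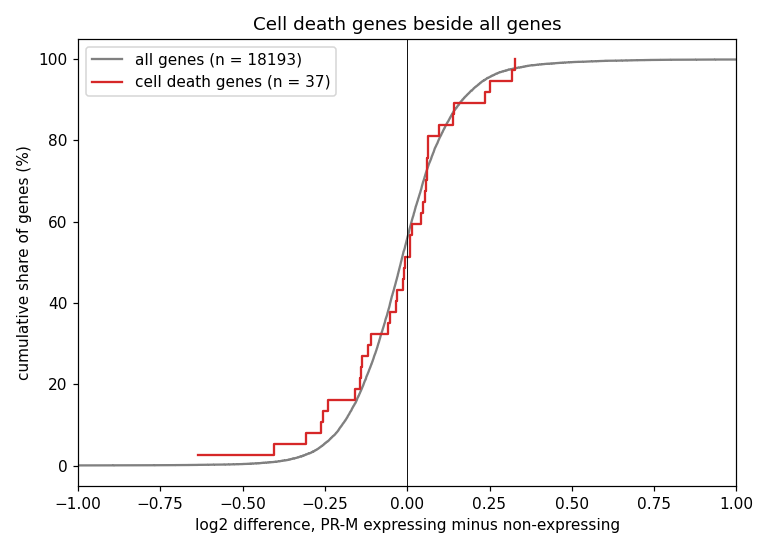
Cumulative share of genes (percent) by log2 difference, PR-M expressing minus non-expressing, for the 37 cell death genes (red) and all 18193 genes (grey), drawn between -1 and 1. The curves run close to each other around their medians of -0.01 and -0.02.

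Among the proteins that open the plasma membrane, the gene of gasdermin E differed most. Gasdermin E is cut by caspase-3, and the freed fragment forms pores that turn apoptosis into lysis. The brighter Gsdme probe set was at 7.16, 7.27 and 7.19 on the 3 PR-M expressing arrays, and at 7.87, 7.86 and 7.79 on the 3 without expression. The groups were 0.53 apart at their nearest arrays, the widest gap of any member. Mean expression was 7.21 ± 0.06 against 7.84 ± 0.04 (SD, n = 3 each), 1.55-fold higher in the non-expressing arrays. The log2 difference was -0.64 (SE 0.07, 95% interval -0.79 to -0.48). Its adjusted p in limma was 0.0588, just above the threshold, with 4 genes of the array at a lower p. The side of the threshold turned on the processing, with an adjusted p from 0.0249 with an intensity trend and robust prior to 0.253 without non-expressing replicate 2. The log2 difference itself lay between -0.67 and -0.61 when any single array was left out.

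The other Gsdme probe set did not share that difference. It was dim, at 3.42, 3.59 and 3.79 with PR-M and 3.60, 3.63 and 3.67 without, and differed by -0.04 (SE 0.10, adjusted p 0.918 in limma over all probe sets). With the mean of both probe sets the difference of Gsdme was -0.34 (limma adjusted p 0.213). A signal near the bottom of the scale can hide a change, so the dim probe set gives little information in either direction. Gsdmd, the gene of gasdermin D, which is cut by inflammatory caspases, was at 7.17, 7.22 and 7.08 with PR-M and 7.17, 7.15 and 7.18 without. The arrays overlapped, and the difference was -0.01 with a 95% interval from -0.17 to 0.15.

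The genes of the necroptosis pathway, the kinase gene Ripk3 and its substrate gene Mlkl, both lay lower in the expressing arrays, and neither passed. Ripk3 was at 5.81, 5.70 and 5.88 with PR-M and 6.26, 6.02 and 5.88 without, and the nearest arrays of the groups were separated by only 5e-04. Its difference was -0.26 (SE 0.11, limma adjusted p 0.387), and -0.15 without non-expressing replicate 1. Mlkl was at 5.23, 5.45 and 5.16 against 5.46, 5.83 and 5.47, a gap of 0.01, and differed by -0.31 (SE 0.12, limma adjusted p 0.367). Without non-expressing replicate 2 it was -0.19. Both group means of Mlkl lie below the median of all probe sets, 5.78, where background may contribute. The 3 genes whose products form pores in the plasma membrane, Gsdme, Gsdmd and Mlkl, had a median difference of -0.31, which is the value of Mlkl, beside -0.02 over all genes. This median was -0.19 without non-expressing replicate 2, and the difference of Gsdmd was not below the median over all genes. In bulk tissue, fewer cells of a type and less RNA per cell cannot be told apart.

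**Figure D3:**
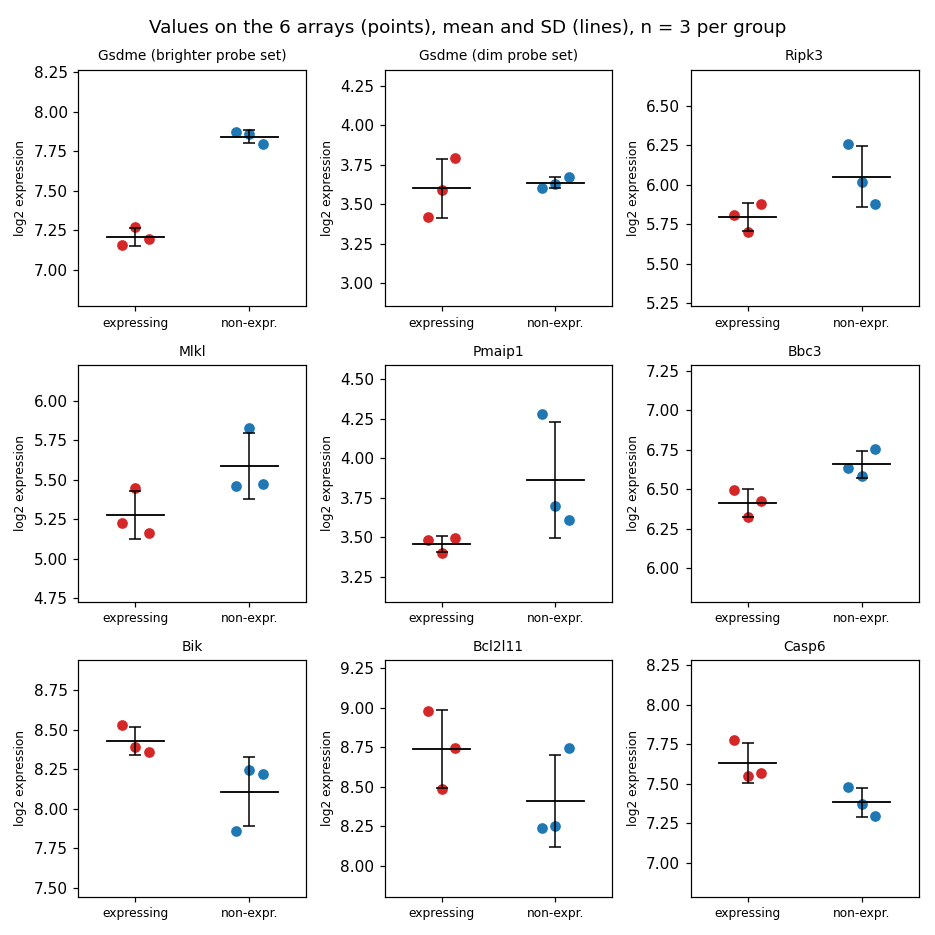
Log2 expression on each array (points) with the mean and SD (lines, n = 3 per group) for both Gsdme probe sets and for 7 other cell death genes, each panel spanning 1.5 log2 units. The brighter Gsdme probe set separates the groups by 0.53, while Ripk3 and Mlkl nearly touch and Bcl2l11 overlaps.

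The start regions of Gsdme, Ripk3, Mlkl and Casp6 are printed because Gsdme had the largest difference, Ripk3 and Mlkl lay lower together, and Casp6 was the caspase with the largest difference, in the other direction. Each is 300 bases long, from 250 before to 50 after the transcription start listed in the RefSeq table of GRCm38.p6, read 5′ to 3′ on the gene's own strand. The table lists a single start for each of these 4 genes. Those of Gsdme and Mlkl lie inside the gene, downstream of its outermost 5′ end. The windows printed for Gsdme and Mlkl therefore lie wholly within the gene, not upstream of it. Gsdme is on the minus strand at chr6:50261720-50262019, Ripk3 on the minus strand at chr14:55788808-55789107, Mlkl on the minus strand at chr8:111338156-111338455 and Casp6 on the plus strand at chr3:129901165-129901464. Capitals mark the GC box, GGGCGG or its reverse complement CCGCCC, which Sp1-type factors bind; the steroid receptor hexamer searched beside it, AGAACA or TGTTCT, is in none of the 4.
Gsdme: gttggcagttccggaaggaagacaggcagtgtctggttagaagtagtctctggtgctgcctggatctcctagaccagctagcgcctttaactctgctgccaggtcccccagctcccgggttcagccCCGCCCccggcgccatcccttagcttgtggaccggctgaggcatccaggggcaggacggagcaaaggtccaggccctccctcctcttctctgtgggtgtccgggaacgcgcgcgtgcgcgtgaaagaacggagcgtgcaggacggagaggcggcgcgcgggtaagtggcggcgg
Ripk3: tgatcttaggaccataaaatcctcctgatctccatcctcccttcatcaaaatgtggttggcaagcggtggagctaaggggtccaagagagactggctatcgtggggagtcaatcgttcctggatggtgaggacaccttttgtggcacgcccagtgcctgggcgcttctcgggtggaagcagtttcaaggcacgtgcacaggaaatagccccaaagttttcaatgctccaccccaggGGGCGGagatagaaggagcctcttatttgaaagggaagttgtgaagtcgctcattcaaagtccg
Mlkl: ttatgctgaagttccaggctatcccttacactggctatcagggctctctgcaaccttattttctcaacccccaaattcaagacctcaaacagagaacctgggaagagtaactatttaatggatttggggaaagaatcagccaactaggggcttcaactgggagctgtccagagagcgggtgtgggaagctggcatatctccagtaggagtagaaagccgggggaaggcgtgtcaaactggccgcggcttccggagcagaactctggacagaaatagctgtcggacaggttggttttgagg
Casp6: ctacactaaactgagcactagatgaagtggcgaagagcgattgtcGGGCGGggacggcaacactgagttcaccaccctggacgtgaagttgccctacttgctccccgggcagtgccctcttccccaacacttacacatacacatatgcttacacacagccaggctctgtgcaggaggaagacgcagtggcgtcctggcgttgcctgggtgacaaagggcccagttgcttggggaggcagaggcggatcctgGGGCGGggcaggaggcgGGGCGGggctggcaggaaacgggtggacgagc

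Casp6 held 3 GC boxes, Gsdme and Ripk3 1 each and Mlkl 0. Of the 37 measured members 34 were found in the promoter table, with 46 start regions. A GC box was in 58.7% of those regions and in 35.7% of all 32851 regions of the table, which also holds genes that make no protein. The steroid receptor hexamer was in 10.9% of the members' regions and 19% of all, in Bok, Casp1, Fadd and Xiap. The 10-base unit of the p53 response element, searched by its consensus on both strands, was in 6.52% and 8.36%, and the members that held it were Birc2, Bmf and Mdm2. These are matches of letters in one window and were not tied to the expression values.

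BH3-only genes, whose products sense stress and trigger the mitochondrial route, went in both directions, with 6 of 8 lower and 2 higher. Their median difference was -0.14, beside -0.02 over all genes, of which 44.0% were above zero. Bbc3, which encodes PUMA, a p53 target, was at 6.50, 6.32 and 6.43 with PR-M and 6.63, 6.58 and 6.75 without. The groups did not overlap, and the difference of -0.24 (SE 0.08, limma adjusted p 0.314) did not pass. Pmaip1, the gene of NOXA, was dim throughout, at 3.48, 3.40 and 3.49 against 4.28, 3.69 and 3.61. Its difference of -0.40 (SE 0.16, limma adjusted p 0.378) leaned on non-expressing replicate 1, and was -0.19 without it. Bid, which links death receptors to the mitochondrion once caspase-8 has cut it, was at 5.96, 5.65 and 5.54 against 5.74, 6.28 and 5.91, with overlap. It differed by -0.26 (SE 0.16, limma adjusted p 0.523), and by -0.11 without non-expressing replicate 2. The remaining BH3-only genes below zero were Bad at -0.16, Hrk at -0.12 and Bmf at -0.05.

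Bik and Bcl2l11 were the BH3-only genes with positive differences, and they had the largest positive values of all members. Bik was at 8.53, 8.39 and 8.36 with PR-M and 7.86, 8.25 and 8.22 without, without overlap. It differed by 0.32 (SE 0.11, limma adjusted p 0.335), and by 0.19 without non-expressing replicate 1, the lowest array. Its other probe sets differed by 0.55 and 0.28, in the same direction. The brightest Bik probe set ends in _x_at, a class that can read related transcripts. Bcl2l11, the gene of BIM, was at 8.98, 8.49 and 8.74 against 8.24, 8.25 and 8.74. Non-expressing replicate 3 lay as high as expressing replicate 3, so the groups overlapped, and the difference of 0.33 (SE 0.17, limma adjusted p 0.460) did not pass. Leaving out non-expressing replicate 3 gave 0.49, and leaving out expressing replicate 1 gave 0.20. Of the 4 other Bcl2l11 probe sets 3 had differences of 0.26, 0.30 and 0.28, and the dimmest had -0.16.

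The effector genes of the BCL2 family that were measured, Bak1 and Bok, did not pass. Bak1, whose product forms the pore of the outer mitochondrial membrane together with BAX, was at 6.57, 6.63 and 6.38 with PR-M and 6.78, 6.63 and 6.59 without, a difference of -0.14 with a 95% interval from -0.35 to 0.07. Its second, dimmer probe set differed by -0.50 (SE 0.15, limma adjusted p 0.281 over all probe sets) without overlap. Bok differed by 0.06 with an interval from -0.11 to 0.23. Over the 10 pro-apoptotic members of the family, 3 were higher and 7 lower, and the median was -0.13, beside -0.02 over all genes.

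The anti-apoptotic members showed differences of at most 0.14 in size, 2 higher and 2 lower, with a median of -0.05. Mcl1, whose short-lived product is needed for survival of heart muscle cells, was at 10.97, 11.01 and 10.92 with PR-M and 11.19, 11.11 and 11.02 without. The groups lay 0.01 apart, and the difference was -0.14 (SE 0.07, limma adjusted p 0.467). Of the 5 other Mcl1 probe sets 4 were higher in the expressing arrays, by 0.04 to 0.21, so the probe sets of this gene did not share a direction. Bcl2l1, the gene of BCL-XL, was at 9.20, 9.31 and 9.39 against 9.14, 9.26 and 9.06, with overlap, a difference of 0.14 (SE 0.08, limma adjusted p 0.509). Its 3 other probe sets, all dimmer, were at -0.04, -0.07 and -0.10. Bcl2 differed by -0.14 with a 95% interval from -0.46 to 0.18 and Bcl2l2, the gene of BCL-W, by 0.04 with an interval from -0.19 to 0.28. Without expressing replicate 1 the anti-apoptotic median was 0.04 in place of -0.05.

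Factors that leave the mitochondrion or act just after it were close to equal between the groups. Apaf1, the scaffold of the apoptosome, differed by -0.03 (95% interval -0.33 to 0.27). Aifm1 and Endog, whose products move to the nucleus and take part in DNA cleavage, differed by 0.10 (-0.11 to 0.31) and -0.01 (-0.30 to 0.28). Diablo, which relieves the inhibition of caspases, differed by 0.06 (-0.14 to 0.25). None of the 4 intervals left out zero. Among the inhibitors of apoptosis, Xiap differed by 0.05, Birc2 by 0.01 and Birc3 by -0.06, with intervals that reached no further than 0.31 from zero.

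Of 7 caspase genes, 5 were higher and 2 lower, with a median of 0.058. Over all genes 44.0% were above zero and the median was -0.02. Leaving out expressing replicate 1, 2 or 3 gave a caspase median of 0.015, 0.012 or 0.11. Casp6, an executioner caspase that cuts nuclear lamins, was at 7.78, 7.55 and 7.57 with PR-M and 7.48, 7.37 and 7.30 without. All 3 expressing arrays were above the non-expressing ones, by a margin of 0.07, and the difference of 0.25 (SE 0.09, 95% interval 0.04 to 0.46) did not pass (limma adjusted p 0.335). Casp12, a caspase linked to the endoplasmic reticulum, was at 7.62, 8.04 and 7.76 against 7.44, 7.80 and 7.46, with overlap, and differed by 0.24 (SE 0.14, limma adjusted p 0.505). Leaving out expressing replicate 2 gave 0.12, leaving out non-expressing replicate 2 gave 0.35, and its second probe set differed by 0.05. The initiator caspase genes Casp8 and Casp9 differed by 0.06 and -0.11 and Casp2 by 0.01. Casp1 and Casp4, which cut gasdermin D, differed by 0.06 (95% interval -0.14 to 0.25) and -0.01 (-0.34 to 0.33).

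Death receptor genes showed no difference above 0.14 in size. The receptor genes Fas and Tnfrsf1a differed by 0.14 (95% interval -0.10 to 0.38) and -0.03 (-0.19 to 0.13). Fadd, the adaptor that recruits caspase-8, differed by 0.01, and Cflar, whose product FLIP blocks that step, by 0.06. Mdm2, the ubiquitin ligase gene that p53 induces and that restrains p53, was at 9.03, 9.10 and 9.18 with PR-M and 9.06, 9.05 and 9.06 without, a difference of 0.05 (-0.11 to 0.21).

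Probe sets of the same gene gave a check that the choice of the brightest did not use. The 37 genes had 87 probe sets, and 23 genes had more than 1. Of the 50 probe sets that were not the brightest, 23 had the sign of the brightest one of their gene. None of them passed over all 45037 probe sets (limma), where 0.0133% passed, and 4 were at an unadjusted p under 0.05 beside 12.2% of all probe sets. All 4 shared the sign of the brightest: they belonged to Bak1, Bik and Bcl2l11, the last with 2. In 11 of the 23 genes every probe set had the same sign, among them Bid, Bik, Bmf, Casp6 and Gsdme. The shared sign says little for Gsdme, whose dim second probe set was at -0.04 against -0.64. The share of such genes over the whole array was not counted.

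**Figure D4:**
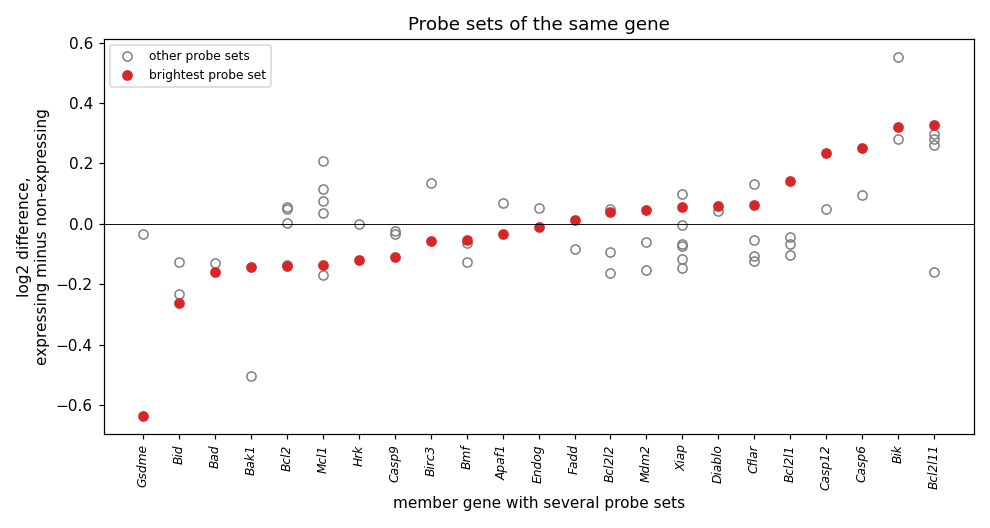
Log2 difference, PR-M expressing minus non-expressing, of each probe set of the 23 cell death genes with several probe sets, ordered by the brightest (red) with the others as open circles. The other Gsdme probe set is at -0.04 against -0.64, while the probe sets of Bid and Bik keep the sign of the brightest.

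Other genes of the same pathways were taken from lists written by function, and none of their members passed the test (limma over all genes). Over all genes, 12.6% were at an unadjusted p under 0.05 in limma, 5.27% higher and 7.33% lower. Of 18 measured genes of the apoptosis machinery, 4 were at an unadjusted p under 0.05 and higher and 2 lower, with a list median of 0.03. Those with the lowest p were Parp1, a DNA repair enzyme gene cut by caspases, at 0.28 (SE 0.08, adjusted p 0.283) and Vdac2, a channel gene of the outer mitochondrial membrane whose product binds BAK, at 0.27 (SE 0.08, adjusted p 0.290). Of 11 further death receptor genes, 1 was at an unadjusted p under 0.05, Fasl, the gene of the ligand of Fas, at -0.30 (adjusted p 0.241) and a dim 3.97 against 4.28; Tnfaip3 had the next lowest p, at -0.25. Of 8 inflammasome and pyroptosis genes, 7 were lower, beside 10182 of all 18193 genes, and 0 were at an unadjusted p under 0.05 (median -0.08). Gsdma differed by -0.16, at a dim 3.67 against 3.83, and Panx1 by -0.12. Of 20 p53 target genes, 11 were higher and 9 lower, 0 were at an unadjusted p under 0.05 and the median was 0.04; Btg2 was at -0.47 (SE 0.24, adjusted p 0.451) and Tigar at -0.18.

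Several features of the samples moved with the groups, and their part in the values above was not tested. The title prefixes part the samples into sets of which none holds both groups, so prefix and group cannot be told apart. Control probe sets of 18S ribosomal RNA were at 8.31 ± 0.22 with PR-M and 9.88 ± 0.38 without (SD, n = 3 each; two-sided exact permutation test, p = 0.1, as low as this design goes). For beta-actin, the 3′ end read above the 5′ end by 1.23 against 1.38, again with no overlap (p = 0.1 in the same exact test). For Gapdh that value was 0.17 against 0.25 (exact p = 0.3) and the hybridisation spikes differed by -0.15 (exact p = 0.2). Cell type markers are given by direction too, beside 44.0% of all genes above zero. Of 8 atrial muscle markers 7 were higher, and the summed linear level of the 8 was 3551 to 10428 with PR-M and 1781 to 2817 without. Sln, Myl4 and Myl7 differed most, by 3.89, 3.60 and 3.45 on the log2 scale, and the value of Sln was the highest of all 18193 genes. Nppa, Dkk3, Fgf12 and Stard10 differed by 1.02, 0.83, 0.16 and 0.10, and Nr2f2 by -0.09. None of the 8 passed in limma over all genes. All 8 fibroblast markers were higher, with a summed level of 24118 to 26560 against 20519 to 22613. The 8 endothelial markers, 5 of them higher, summed to 4448 to 4584 against 3956 to 4290. Macrophage and leukocyte markers, in whose cells Ripk3, Mlkl, Casp1 and Casp4 are also active, overlapped at 7755 to 9283 against 6432 to 9656, with 8 of 12 higher. Neutrophil markers (3 of 5 higher) overlapped at 323 to 427 against 225 to 856, and lymphocyte markers (2 of 9 higher) at 427 to 472 against 450.0 to 470. Smooth muscle and pericyte (4 of 8 higher) and adipocyte (4 of 4) sums overlapped as well. Of 6 listed Schwann cell markers 3 were measured, all higher: Mbp by 0.88, Sox10 by 0.05 and Pmp22 by 0.01. Their sums overlapped, but their mean log2 levels did not, at 7.77 to 7.91 with PR-M and 7.49 to 7.56 without. Cardiomyocyte markers, 6 of 10 higher, were bright on all arrays, with a mean log2 level of 14.1 to 14.2 in the expressing arrays, as the heart label states. No marker is at 0 on this scale, where unexpressed genes keep a background value.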

How the data were processed

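RNA of the ventricular apex (500 ng of total RNA per sample, amplified with the MessageAmp Premier kit, per the labels' protocols) was measured on 6 arrays. The authors deposited 1 log2 value for each probe set and array. RMA and Partek 6.6 are named in the submitters' processing notes without a role, and no source used here gives the background and summary settings. The scale was inferred from the values, which ran from 2.09 to 14.8 with array medians of 5.77 to 5.78. Rank by rank, arrays differed by at most 0.155, so a shift of all genes together would not show. Of 45101 probe sets 64 were controls; 34945 of the other 45037 carried 1 platform gene symbol, 932 several and 9160 none, and 0 symbols changed against RefSeq (GRCm38.p6). Replicates were numbered in record order.

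Groups were compared in R 4.3.3 with limma 3.58.1 (two-sided moderated test by lmFit and eBayes, prior 3.83 and residual 4 degrees of freedom) over 18193 genes, and again over all probe sets, with Benjamini-Hochberg adjustment and a threshold of 0.05. No filter on low values was used. The fit was tested on simulated data. Control probe sets were compared by exact permutation. The members, role groups and lists were chosen with earlier results of these data known. Every member is named; the 12 with the lowest p have full statistics, and of each pathway list the 2 with the lowest p are given; other list totals are counts. Alternatives changed the filter, scaling, prior, array weights, probe set choice, title prefix as a random block (consensus correlation 0.165, statmod 1.5.0) and the arrays left out.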

Additional observations from a re-analysis of the deposited data

How the results depend on the processing

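No member passed over genes in 12 of 17 alternatives, and 1, Gsdme, passed in the other 5. Its adjusted p was 0.0284 with dim probe sets left out, 0.0249 with an intensity trend and robust prior, 0.0286 with array weights, 0.0462 with the probe set of largest variance and 0.0451 with the prior from all probe sets, an alternative chosen after seeing the data. In the first 3 of these 1 member also passed over all probe sets. The difference was -0.64 in 4 of the 5 and -0.61 with array weights. A random block for the title prefix gave Gsdme a limma adjusted p of 0.162. No prefix holds both groups, so that block cannot separate prefix from group. Without 1 array the limma adjusted p of Gsdme lay between 0.0562 and 0.253, with 0 members called over genes or probe sets. The limma adjusted p was 0.0562 without non-expressing replicate 1, below the 0.0588 with all arrays. Leaving out any other array gave a value above 0.0588. The part of the smaller number of arrays in these values was not tested. Members at an unadjusted p under 0.05 numbered 3 with ordinary statistics (8.11% beside 10.9% of all genes) and 3 to 9 without 1 array (8.11% to 24.3% beside 9.22% to 16%). Members without overlap numbered 5 with cyclic loess scaling (13.5% beside 19.2%) and 10 to 13 without 1 array (27% to 35.1% beside 27.3% to 35.3%). The count of all genes called went from 0 without non-expressing replicate 2 to 26 with array weights. Mcl1 turned to 0.022 and Bcl2l1 to -0.017 with the mean of all probe sets, and to 0.12 and -0.066 with the probe set of largest variance; neither passed in any alternative. The pro-apoptotic BCL2 median was -0.11 with the mean of all probe sets, and the median of all members -0.030 with the probe set of largest variance. Without 1 array the medians ran from -0.15 to -0.088 for pro-apoptotic members, -0.082 to 0.044 for anti-apoptotic members, 0.012 to 0.11 for caspases, -0.39 to -0.19 for pore-formers and -0.042 to 0.014 for all members. The cause of these shifts was not tested. The filter on dim probe sets removed Mlkl and Pmaip1. No paired analysis was possible because the labels give the groups no shared replicate numbers that pair samples. Precision was limited by 3 arrays in each group.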

Other observations

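Non-expressing replicate 1, the sole array with its title prefix, lay outside the other 2 non-expressing arrays in 12 of the 37 members, with a distance to their mean of over 2 times the distance between them. That is 32.4% of the members beside 40% of all genes; the count and the genes below were chosen after their values were seen. Endog, a mitochondrial nuclease gene, was at 10.88 there and at 10.44 and 10.45 in replicates 2 and 3, while Aifm1 was at 10.46 against 10.17 and 10.21. Casp4 was at 6.08 against 6.45 and 6.55, and Bcl2l2 at 9.02 against 9.27 and 9.40. In these 4 genes the spread within the non-expressing group exceeded the difference between the group means.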
